A study of Mus musculus with 18 samples.

Results

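Control bulge hair follicle stem cells (HF-SCs) were compared with control basal keratinocytes (b-KCs) of the same mice. The members are the 6 control (Co) libraries of the 18 in the series, 3 of HF-SCs and 3 of b-KCs. They were picked by their labels, not by measured values, as the CD34+ and CD49f+ libraries of control mice 810, 825 and 828, and no library of a mutant mouse entered the comparison. RNA-seq was made from ear skin of mice on a mixed background. The control mice carried the K5-Cre-ERT transgene, which places a tamoxifen-inducible Cre under the keratin 5 promoter of basal keratinocytes, and the mT/mG reporter, which switches from Tomato to GFP where Cre acts. Their JunB and c-Jun alleles were wild-type or heterozygous floxed, and which of these a given control mouse carried is not stated in the labels. Males and females of 8 weeks received 4 daily injections of 2 mg tamoxifen, so both groups share the transgenes and the drug. The day on which the control mice were killed is not stated in the labels. Of the 3 mice, 810 had Y-linked Ddx3y at 23.4 FPKM in HF-SCs and 16.9 FPKM in b-KCs with Xist under 0.2 FPKM, and mice 825 and 828 had Xist at 14.7 to 21.9 FPKM with Ddx3y under 0.1 FPKM, so mouse 810 was male and the other two female.

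Live CD45- CD49f-high cells of the trypsin-separated ear epidermis were sorted as CD34+ HF-SCs or CD34- b-KCs. The labels name no marker of vessels or dermal cells for this sort, whereas the study's methods list a CD31 stain among those used depending on the experiment. CD34 and CD49f, the protein of Itga6, defined the gate, so the Cd34 and Itga6 values describe the sort and are not findings. Each mouse gave 1 library of each cell type. The error behind each value is the spread between the 3 mice, moderated by limma toward that of genes at a similar level.

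The bulge is the niche of the hair follicle in which slow-cycling stem cells are kept between rounds of hair growth. These cells are known for a set of transcription factors, among them Lhx2, Sox9, Tcf7l1 and Nfatc1, for inhibitors of Wnt and BMP signalling, and for a basement membrane rich in bulge-specific proteins. Basal keratinocytes of the interfollicular epidermis (IFE) are anchored to the basement membrane, divide, and give rise to the spinous and cornified layers through keratins 1 and 10, Notch and factors such as Grhl3 and Ovol1.

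The deposited FPKM values (fragments scaled by transcript length and by the mapped reads of the library) sum to 360063 to 409258 in the HF-SC libraries and to 462297 to 481610 in the b-KC libraries. Their smallest steps imply 18661100 to 24323500 counted reads per library, a depth at which 3 reads on a transcript of 1 kb correspond to 0.123 to 0.161 FPKM. Across the tested genes, Pearson's r on the log2(FPKM + 1) scale was 0.972 to 0.984 between HF-SC libraries, 0.991 to 0.993 between b-KC libraries and 0.832 to 0.851 between cell types. Krt15 is listed at exactly 0 in 1 HF-SC library while the other two hold it at high values, so an exact 0 can be a failed estimate.

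Of 23951 genes, 11905 reached 1 FPKM in at least 3 of the 6 libraries and were tested with limma on log2(FPKM + 1), with the mouse as a block. Calls required an adjusted p-value (Benjamini-Hochberg) below 0.05 together with a log2 fold change of 1 or more in either direction. Fold changes are HF-SC minus b-KC throughout, so a positive value is higher in HF-SCs, and those of low genes are understated by the added 1. HF-SCs were higher for 1321 genes (11.1% of those tested) and b-KCs for 1411 (11.9%), and these shares are given below as the background beside the counts of each gene list, in the order of the counts. The split moved to 1652 against 1082 when libraries were rescaled to the same upper quartile, which shifted the median of all genes from -0.08 to 0.11. The 3 HF-SC libraries lay wholly above the 3 b-KC libraries for 3822 tested genes (32.1%) and wholly below them for 4604 (38.7%). Of the tested genes, 640 passed the filter only through HF-SC libraries and 274 only through b-KC libraries, and such a gene had to differ. These are sorted bulk populations, so a difference in the share of a cell type and a difference in RNA per cell cannot be told apart.

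**Figure D1:**
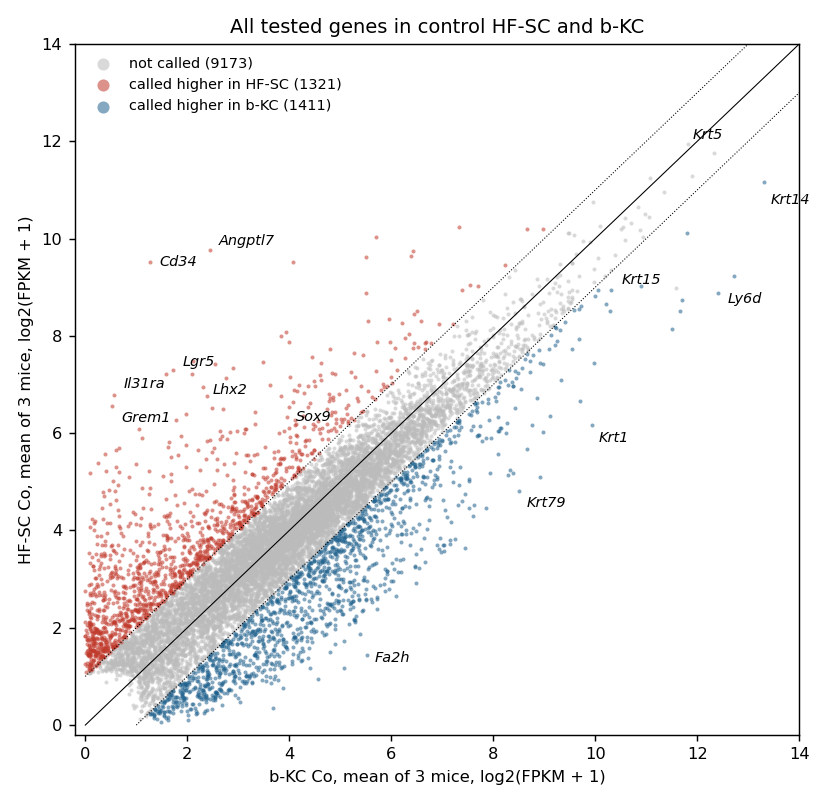
Mean log2(FPKM + 1) of the 3 HF-SC Co libraries (vertical) against that of the 3 b-KC Co libraries (horizontal) for the 11905 tested genes; the solid line marks equal values and the dotted lines a log2 fold change of 1. The 1321 genes called higher in HF-SCs (red) reach further from the line than the 1411 called higher in b-KCs (blue), with Angptl7 at 7.32 and Fa2h at -4.09. The gate gene Cd34, at 8.24, describes the sort.

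The markers of both labels were looked at first. Cd34 (chr1:196765015-196787486 in NCBIM37, plus strand), a sialomucin of the cell surface, was at 889, 639.8 and 680.2 FPKM in the HF-SCs of mice 810, 825 and 828 and at 2.04, 1.13 and 1.18 FPKM in their b-KCs, and mice are given in this order from here on. Lhx2 (chr2:38194801-38225253, plus strand), a LIM-homeobox factor that keeps bulge cells undifferentiated, was at 165, 102 and 109 FPKM in HF-SCs and 4.38, 3.73 and 3.83 FPKM in b-KCs. Sox9 (chr11:112643538-112649074, plus strand), which specifies the bulge lineage, was at 94.6, 72.3 and 72.3 FPKM in HF-SCs and 15.3, 15 and 13.2 FPKM in b-KCs. The separation of Cd34 was set by the gate. For Lhx2 and Sox9 every HF-SC library lay above every b-KC library, as for 32.1% of all tested genes. The log2 fold changes were 4.63 ± 0.12 (SE) for Lhx2 and 2.37 ± 0.11 for Sox9, with limma adjusted p of 1.13e-08 and 1.67e-07. Krt5 (chr15:101537501-101543322, minus strand), the type II keratin of all basal epidermal cells, was at 3163, 3369.9 and 3902 FPKM in HF-SCs and 5081, 5529.5 and 4928 FPKM in b-KCs. It was thus abundant in both populations, and its log2 fold change of -0.58 ± 0.26 was not called (limma adjusted p = 0.0751), although the 3 pairs all lay on the b-KC side.

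All 15 listed bulge transcription factors passed the filter, Tcf7l1 and Gli1 only through HF-SCs, and 14 were called higher in HF-SCs with none called higher in b-KCs, beside the 11.1% and 11.9% of all tested genes. The median log2 fold change of the list was 1.68, against -0.08 over all tested genes. Tbx1, a T-box factor linked to stem cell renewal in the follicle, was at 155, 117 and 110.2 FPKM in HF-SCs and 11.8, 11.3 and 10.8 FPKM in b-KCs (3.37 ± 0.11, limma adjusted p = 3.75e-08). Tcf7l1, the Tcf family repressor of bulge cells, was at 9.01, 6.96 and 6.43 FPKM in HF-SCs and stayed under 1 FPKM in b-KCs. Nfatc1, known for holding bulge cells in quiescence, showed a smaller separation, at 58.2, 75.2 and 62.1 FPKM in HF-SCs and 26, 29.2 and 23.7 FPKM in b-KCs (1.27 ± 0.10). Foxc1, which also serves quiescence, had a log2 fold change of 1.52, and Runx1, which promotes entry into growth, 2.02. The other called factors, Tcf7l2, Gli1, Gli2, Nfib, Vdr, Foxp1 and Barx2, lay between 1.04 and 2.09. Nfix was the member that was not called, at 50.2, 38 and 37 FPKM in HF-SCs and 44.9, 41.1 and 47.1 FPKM in b-KCs, and its libraries overlapped, unlike those of its relative Nfib.

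The bulge marker list held 18 genes, all of which passed the filter, Fgf18 and Igfbp5 only through HF-SCs. The list includes the gate gene Cd34, and of the other 17 HF-SCs were called higher for 16 (background 11.1%), with a median log2 fold change of 3.18. Lgr5, the R-spondin receptor of follicle stem cells, was at 143, 175 and 156 FPKM in HF-SCs and 1.98, 2.63 and 2.33 FPKM in b-KCs, a 68.3-fold ratio of means (log2 fold change 5.58 ± 0.10, limma adjusted p = 2.05e-09). Angptl7, a secreted angiopoietin-like protein, ran from 546 to 1361 FPKM in HF-SCs against 3.43 to 6.54 FPKM in b-KCs. Its HF-SC level was highest in mouse 810 and lowest in mouse 825, and the b-KC level followed the same order of mice. Cd200, an immune-inhibitory surface protein used to mark human bulge cells, was at 103, 94.4 and 126 FPKM in HF-SCs and 14, 11.5 and 14.8 FPKM in b-KCs. Fgf18, a growth factor known for prolonging the resting phase, was at 43.4, 37.6 and 28.6 FPKM in HF-SCs and under 1 FPKM in every b-KC library. Matricellular and basement membrane proteins of the bulge were in the same direction, Ctgf with 4.13, Egfl6 with 3.79, Npnt, the ligand that anchors the arrector pili muscle, with 3.14, Postn with 2.91, Aspn with 2.90 and Tnc with 2.63.

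Krt15, the keratin used to mark the bulge, was at 11261 and 11764 FPKM in the HF-SCs of mice 810 and 825, above the 3038 to 3102 FPKM of b-KCs, and is listed at 0 in the HF-SCs of mouse 828. As deposited it was not called (-2.59, limma adjusted p = 0.301). The log2 fold change became 1.91 with that 0 treated as missing (limma adjusted p = 0.000842, called higher in HF-SCs) or without mouse 828 (adjusted p = 0.00888). Without mouse 810 it was -4.83 (adjusted p = 0.000555, called higher in b-KCs), although mice 825 and 828 then differed in direction. That adjusted p rests on variance that limma borrows from other genes. The Krt15 direction therefore rests on the single 0 of mouse 828.

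**Figure D2:**
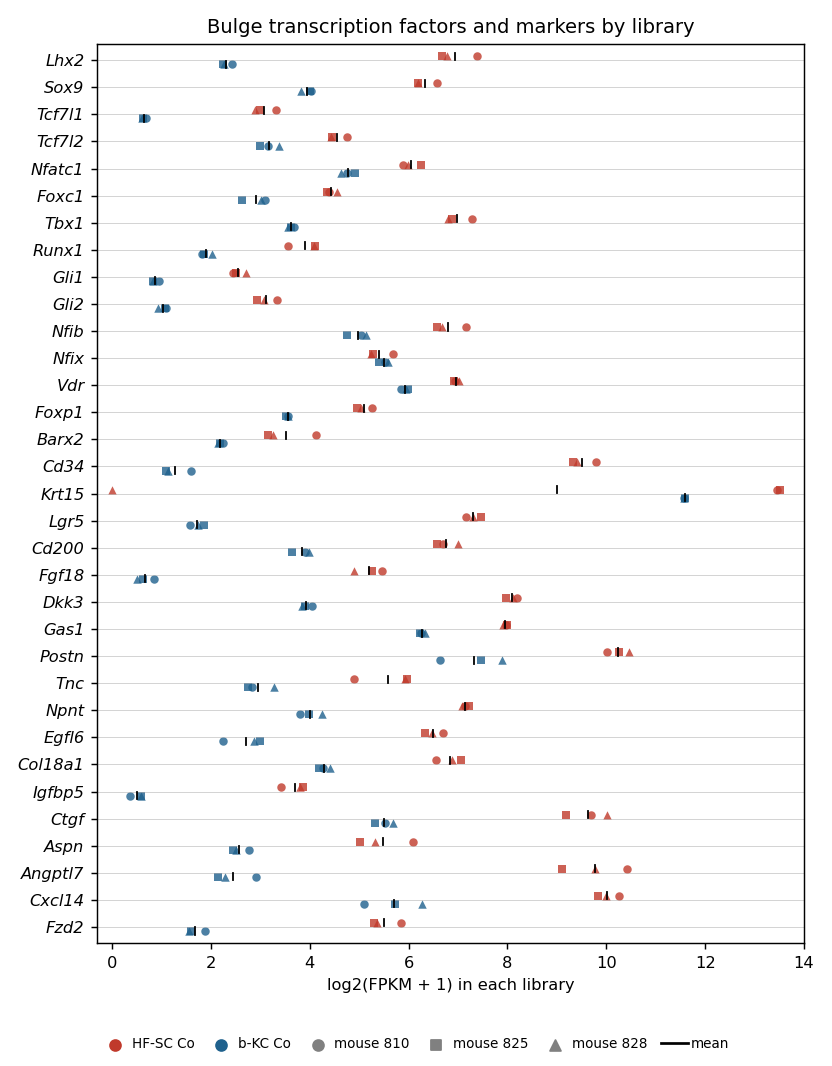
log2(FPKM + 1) of the 15 bulge transcription factors and 18 bulge markers in each library; red is HF-SC Co, blue is b-KC Co, symbols are the mice and the black bar is the mean of 3. The groups do not overlap for any gene but Nfix and Krt15, whose HF-SC value in mouse 828 is listed at 0.

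Of the 14 genes listed for interfollicular basal cells, 5 were called higher in b-KCs and none in HF-SCs (median -0.58), beside 11.9% and 11.1% of all tested genes. The list includes the gate gene Itga6 (-0.58, not called), so its median is not free of the gate. Krt14, the type I partner of Krt5, was at 2085, 2479 and 2292 FPKM in HF-SCs and 9940.5, 10559.6 and 9817 FPKM in b-KCs (-2.15 ± 0.27, limma adjusted p = 8.92e-05). In a fit across all 18 libraries, with 1 mean per group, Krt14 was no longer called (adjusted p = 0.581). Ly6a, which encodes Sca-1, an antigen of interfollicular and infundibular cells, was at 63.7, 44.1 and 36.6 FPKM in HF-SCs and 355, 239 and 240.0 FPKM in b-KCs. Ly6d, a related surface protein, was at 499, 479 and 445 FPKM in HF-SCs and 5831, 5369 and 5172 FPKM in b-KCs (-3.52). Sfn, the keratinocyte 14-3-3 protein, and Thbs1, a matricellular protein, were the other called members (-1.88 and -1.46). Trp63, the master factor of stratified epithelia, was at 327 to 341 FPKM in HF-SCs and 239 to 311 FPKM in b-KCs and was not called (0.31 ± 0.14). Aqp3, a water and glycerol channel, was at 543, 702 and 725 FPKM in HF-SCs and 381, 372 and 287 FPKM in b-KCs, without overlap and under the fold threshold (0.92 ± 0.18), and was called higher in HF-SCs under upper-quartile rescaling (1.12). Dst, a hemidesmosomal linker, had 0.57, also without overlap.

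Genes of the upper follicle, the junctional zone and infundibulum between bulge and surface, were called higher in b-KCs for 5 of 10 listed members and in HF-SCs for none, beside 11.9% and 11.1% of all tested genes. Krt79, the keratin of the infundibular opening, was at 31.2, 22.5 and 27.9 FPKM in HF-SCs and 441, 322 and 338 FPKM in b-KCs (-3.70 ± 0.11, limma adjusted p = 2.36e-08). Defb6, a beta-defensin, was at 33.1, 10.3 and 26.6 FPKM in HF-SCs and 269, 180.3 and 255 FPKM in b-KCs. Gata6, a factor of the junctional zone and sebaceous duct, Plet1 and Cst6 were also called higher in b-KCs (-1.25, -1.21 and -2.21). Lrig1 and Lgr6, stem cell markers of the isthmus, were not called, Lrig1 at 12, 23.7 and 22.4 FPKM in HF-SCs and 22.9, 24 and 29.7 FPKM in b-KCs and Lgr6 at 24.1, 32.6 and 34.4 FPKM against 31.3, 39.6 and 44.2 FPKM. Transcripts of upper follicle genes were thus present in the b-KC libraries, and the share of upper follicle cells among b-KCs was not tested.

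Genes of the differentiated layers were mostly higher in b-KCs. Of 23 listed, 22 were in the table, all of these passed the filter, and 19 were called higher in b-KCs and none in HF-SCs (median -2.04, background 11.9% and 11.1%). Krt1, a keratin of the spinous layer, was at 62.6, 84.9 and 66.2 FPKM in HF-SCs and 1073, 953 and 909 FPKM in b-KCs, and its partner Krt10 at 292, 327 and 231 FPKM against 3418, 2579.9 and 2743 FPKM. The log2 fold changes were -3.77 ± 0.15 and -3.36 ± 0.19, with every b-KC library above every HF-SC library. Tgm3, a transglutaminase that cross-links the cornified envelope, was at 1.35, 1.42 and 0.99 FPKM in HF-SCs and 24.6, 18.9 and 17.8 FPKM in b-KCs (-3.24 ± 0.12). Late genes were low in both populations and still separated, with involucrin (Ivl) at 3.27, 6.01 and 2.92 FPKM in HF-SCs and 26.4, 17.5 and 15.6 FPKM in b-KCs and loricrin (Lor) at 5.54, 10.8 and 5.17 FPKM against 19.3, 25.8 and 28.8 FPKM. Within HF-SCs, mouse 825 was highest for Krt1, Krt10, Ivl, Lor, Tgm3 and most other members. Dmkn, Hrnr and Lce1a1 were not called (-0.38, -0.97 and -0.06). The b-KCs were sorted as basal cells, and the number of spinous cells among them was not tested.

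Transcription factors of differentiation were divided. Of 18 listed, all passed the filter, 10 were called higher in b-KCs and 1 in HF-SCs (median -1.43, background 11.9% and 11.1%). Ovol1, a zinc-finger repressor that ends proliferation, was at 19, 22.9 and 15 FPKM in HF-SCs and 211, 199 and 169 FPKM in b-KCs (-3.29 ± 0.11, limma adjusted p = 4.33e-08). Zfp750, a target of p63 needed for terminal differentiation, was at 6.72, 6.17 and 5.01 FPKM in HF-SCs and 67.9, 52.7 and 64.2 FPKM in b-KCs. Grhl3, of the grainyhead family that builds the barrier, was at 2.93, 5.24 and 3.25 FPKM in HF-SCs and 39.1, 46.8 and 31.7 FPKM in b-KCs. Its relative Grhl1 went the same way (-2.40), whereas Grhl2 was at 25.1 to 36 FPKM in HF-SCs and 26.2 to 33.4 FPKM in b-KCs (0.09, not called). Cebpa, Tfap2c, Klf5, Hes1, Gata3 and Cebpb were also called higher in b-KCs, between -2.72 and -1.06, Cebpb not under either rescaling (-0.85 and -0.98) or without mouse 825. Dlx3, Ovol2 and Prdm1 had every HF-SC library above every b-KC library and were under the fold threshold (0.75, 0.48 and 0.49). Klf4, a barrier factor, was at 184, 147 and 165 FPKM in HF-SCs and 177, 167 and 191 FPKM in b-KCs and overlapped. Hopx, a homeodomain-only protein that marks slow-cycling follicle cells as well as differentiating ones, was higher in HF-SCs (260.4, 184 and 214 against 104, 94 and 77 FPKM, 1.25 ± 0.13).

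**Figure D3:**
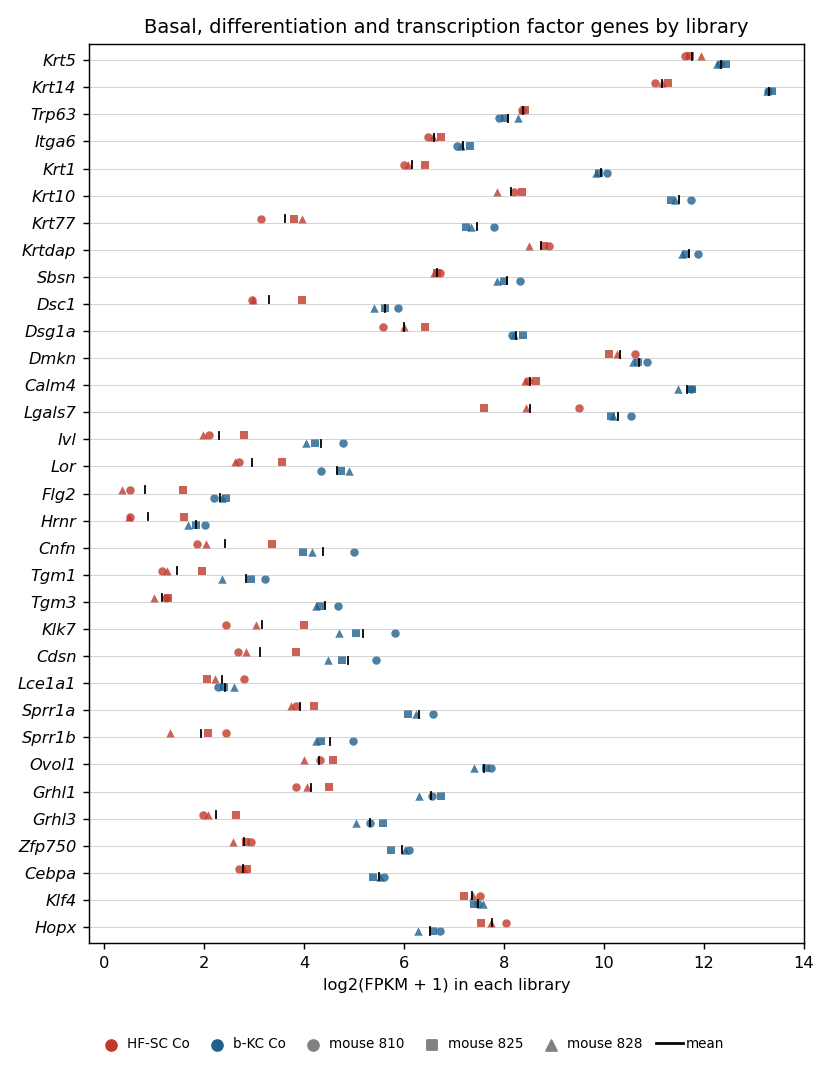
log2(FPKM + 1) in each library for 4 basal genes, the 22 differentiation genes in the table and 7 transcription factors of differentiation; red is HF-SC Co, blue is b-KC Co, symbols are the mice and the black bar is the mean of 3. Krt5 and Trp63 lie close in both groups, the b-KC values of Krt1, Krt10, Krt77, Calm4, Ovol1 and Grhl3 lie apart on the right, and Klf4 overlaps.

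Cell cycle genes were mostly higher in b-KCs. All 22 listed passed the filter, 17 were called higher in b-KCs and none in HF-SCs (median -1.89, background 11.9% and 11.1%). Mki67, the proliferation antigen, was at 1.77, 2.8 and 2.55 FPKM in HF-SCs and 12.3, 13.4 and 13.3 FPKM in b-KCs (-2.06 ± 0.12, limma adjusted p = 6.33e-07). Cdc20, an activator of the anaphase-promoting complex, was at 6.37, 5.13 and 6.72 FPKM in HF-SCs and 47.6, 53.7 and 49.3 FPKM in b-KCs, and cyclins Ccnb1 and Ccnb2 had log2 fold changes of -2.75 and -2.84. Genes of DNA replication were divided, with Mcm2, Mcm3, Mcm5, Rrm2 and Tyms called (-1.77 to -1.11, Tyms not under upper-quartile rescaling at -0.93). The 5 members not called were Mcm4, Mcm6, Mcm7, Pcna and Cdc6, with values of -0.79 to -0.12.

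Among 16 genes of the G1 phase, 15 passed the filter (Mycn only through HF-SCs), 7 were called higher in b-KCs and 2 in HF-SCs (median -0.93, background 11.9% and 11.1%). The 2 in HF-SCs were the cell cycle inhibitors Cdkn1c (p57), at 8.24, 7.38 and 6.43 FPKM against 1.49, 2.0 and 1.32 FPKM in b-KCs, and Cdkn1b (p27), at 6.67, 5.41 and 6.45 FPKM against 2.9, 2.33 and 2.38 FPKM. Other inhibitors went the opposite way, Cdkn2c (p18) with -2.28, Cdkn1a (p21) with -1.94 and Cdkn2b (p15) with -1.90. Ccnd2, a D-type cyclin, was at 23.6, 19.9 and 22.1 FPKM in HF-SCs and 116, 112 and 90.9 FPKM in b-KCs. Myc, which drives growth and exit from the stem cell state, was at 71.1, 70.9 and 66.8 FPKM in HF-SCs and 168, 191 and 227 FPKM in b-KCs (-1.46 ± 0.13). Without mouse 828 Cdkn1b, without mouse 825 Ccnd1, and without mouse 810 or 825 Ccne1 fell under the fold threshold (0.96, -0.85, and -0.97 or -0.94). Ccnd1 and Ccne1 did so under upper-quartile rescaling too (-0.97 and -0.90), and Ccne1 by the median ratio (-0.99).

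Wnt signalling acts through secreted ligands, Frizzled receptors with Lrp5 or Lrp6, and secreted inhibitors, and it triggers growth of the resting follicle. Of 36 listed genes of the pathway, 28 passed the filter, 11 were called higher in HF-SCs and 12 in b-KCs (median -0.41, background 11.1% and 11.9%), with 3 passing only through each cell type. The direction differed by role, and the genes are given by role. Of 12 ligands, 9 passed the filter (Wnt11 only through HF-SCs, Wnt5a and Wnt16 only through b-KCs), 8 were called higher in b-KCs and 1 in HF-SCs (median -1.40, background 11.9% and 11.1%). Wnt3 was at 1.5, 2.25 and 1.8 FPKM in HF-SCs and 21.9, 31.3 and 28.3 FPKM in b-KCs (-3.30 ± 0.11, limma adjusted p = 3.75e-08). Wnt7b was at 11.8, 17.9 and 14.3 FPKM in HF-SCs and 81.2, 89 and 77.1 FPKM in b-KCs, and Wnt4 at 13.2, 10.8 and 10.2 FPKM against 60.3, 50.8 and 46.6 FPKM. Wnt3a, Wnt10a, Wnt5a, Wnt6 and Wnt16 lay between -2.78 and -1.07, and Wnt16 fell under the fold threshold under upper-quartile rescaling (-0.99) and without mouse 828 (-0.97). Wnt11 was the ligand in the other direction, at 2.53, 4.51 and 2.66 FPKM in HF-SCs and 0.978, 0.709 and 0.626 FPKM in b-KCs (1.23 ± 0.17).

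Frizzled receptors were called higher in HF-SCs for 4 of 7 and in b-KCs for 1 (background 11.1% and 11.9%). Fzd2 was at 56.9, 38.6 and 40.3 FPKM in HF-SCs and 2.68, 2.02 and 1.96 FPKM in b-KCs (3.83 ± 0.11), and Fzd3 at 14.4, 17.1 and 15.6 FPKM against 1.43, 1.55 and 1.34 FPKM. Fzd1 and Fzd7 were nearer (1.90 and 1.66), and Fzd10 was higher in b-KCs, at 13.5, 12.4 and 14.1 FPKM against 1.09, 1.33 and 1.37 FPKM. Of the co-receptors, Lrp6 was called higher in HF-SCs (1.32) and Lrp5 was not called (-0.97).

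Of the secreted inhibitors, Dkk3, Wif1 and Sfrp1 were higher in HF-SCs. Dkk3 was at 291, 250.2 and 275 FPKM in HF-SCs and 15.5, 14 and 13.3 FPKM in b-KCs (4.16 ± 0.10, limma adjusted p = 8.02e-09). Wif1, which binds Wnt ligands, was at 63.5, 47.3 and 61.6 FPKM in HF-SCs and 4.75, 4.27 and 4.33 FPKM in b-KCs, and Sfrp1, a soluble Frizzled, at 104, 138 and 138 FPKM against 15.7, 17.4 and 18.8 FPKM. Dkkl1 was the exception, higher in b-KCs (-2.13), and Dkk1, Dkk2, Sfrp2 and Notum were under the filter. The intracellular inhibitors Nkd1 and Nkd2 were called in opposite directions (2.14 and -2.37). Axin2, the usual readout of canonical signalling, was at 2.53, 2.55 and 3.73 FPKM in HF-SCs and 4.97, 3.7 and 5.72 FPKM in b-KCs and was not called (-0.56 ± 0.12).

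BMP signalling keeps bulge cells at rest, and secreted antagonists limit it. Of 27 listed BMP and TGF-β genes, 25 passed the filter (Grem1 only through HF-SCs), 12 were called higher in HF-SCs and 2 in b-KCs (median 0.86, background 11.1% and 11.9%). Among antagonists, Grem1 (chr2:113586321-113598803, minus strand) was at 99.8, 93.2 and 86.6 FPKM in HF-SCs and under 1 FPKM in b-KCs (6.03 ± 0.11). Noggin (Nog) was at 35.4, 21.9 and 22.7 FPKM in HF-SCs and 1.48, 1.45 and 1.2 FPKM in b-KCs, and follistatin (Fst), which binds activin, at 160.3, 124 and 124 FPKM against 21.8, 25.1 and 24.3 FPKM. Sostdc1, at 323, 349 and 376 FPKM against 76.2, 83.7 and 102 FPKM, and Bambi, a decoy receptor (2.32), were also higher in HF-SCs. Target genes of the pathway moved in the same direction as its antagonists, with Id2 at 513, 416 and 481 FPKM in HF-SCs and 54.7, 40.2 and 39.7 FPKM in b-KCs, Id4 with 2.23, Id3 with 1.23 and Smad6 with 1.68, while Id1 was not called (0.44). Of the ligands, Bmp6 was higher in HF-SCs, at 8.2, 14.3 and 8.7 FPKM against 1.3, 1.28 and 0.976 FPKM, Bmp4 higher in b-KCs, at 9.45, 13.1 and 14.2 FPKM against 1.93, 2.28 and 1.71 FPKM, and Bmp2 and Bmp7 were not called. Tgfb1 was higher in b-KCs (-1.43), and the receptor Tgfbr1 and the latency protein Ltbp1 were higher in HF-SCs (1.06 and 1.92).

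**Figure D4:**
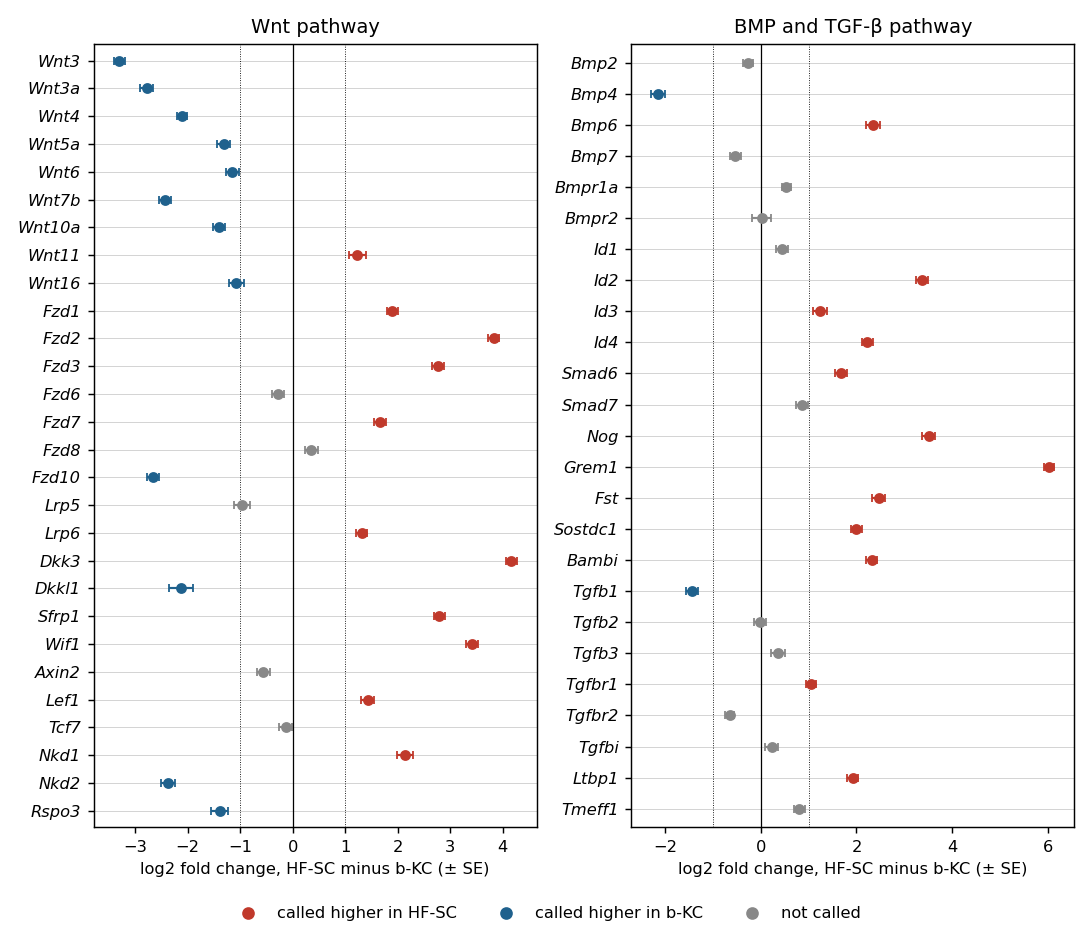
log2 fold change (HF-SC minus b-KC) with its standard error for the 28 Wnt and 25 BMP and TGF-β genes that passed the filter; red and blue points were called higher in HF-SCs or b-KCs, gray points were not called, and dotted lines mark 1 and -1. Of the 9 Wnt ligands, 8 lie left of -1, and the BMP antagonists Grem1, Nog, Fst, Sostdc1 and Bambi all lie right of 1.

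Hedgehog signalling is received by follicle cells through Ptch1, Smo and the co-receptors Gas1, Boc and Cdon. Of 13 listed genes, 9 passed the filter, 2 only through HF-SCs, and 6 were called higher in HF-SCs and none in b-KCs (median 1.48, background 11.1% and 11.9%). Gas1 was at 249, 252 and 240.3 FPKM in HF-SCs and 75.2, 74.2 and 79.5 FPKM in b-KCs (1.68 ± 0.11), and Boc at 69.3, 73.3 and 74.4 FPKM against 15.7, 16.3 and 17.7 FPKM (2.06 ± 0.10). The effectors Gli1, Gli2 and Gli3 had log2 fold changes of 1.68, 2.09 and 1.48. Ptch1, both receptor and target, was at 3.36, 6.79 and 6.68 FPKM in HF-SCs and 2.02, 2.33 and 2.53 FPKM in b-KCs, just under the fold threshold (0.96 ± 0.15), and it was called under both rescalings. The ligands Shh, Ihh and Dhh stayed under 0.5 FPKM in every library.

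Notch signalling promotes the step from basal to spinous cells. Of 15 listed genes, 10 passed the filter (Hey1 only through HF-SCs) and 5 were called higher in b-KCs, none in HF-SCs (median -0.99, background 11.9% and 11.1%). Notch3 was at 0.675, 1.23 and 0.703 FPKM in HF-SCs and 9.7, 6.56 and 10.2 FPKM in b-KCs (-2.38 ± 0.19), the ligand Dll1 at 8.15, 11 and 8.02 FPKM against 25.9, 31.2 and 32.7 FPKM, and the target Hes1 at 17.1, 19.2 and 13.7 FPKM against 65.8, 67.3 and 55.2 FPKM. Nrarp, a feedback target, had -1.98. Notch1 passed narrowly (-1.05) and fell under the fold threshold without mouse 828 (-0.98) and under both rescalings (-0.86 and -0.98). The ligand Jag1 lay on the other side, at 28.5, 38 and 34.6 FPKM in HF-SCs and 14.9, 16.6 and 18.4 FPKM in b-KCs (0.97 ± 0.11, just under the threshold), and it was called higher in HF-SCs under both rescalings (1.17 and 1.05), with a pseudocount of 0.1 and without mouse 810 or 828.

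Growth factors and receptors of the FGF and EGF families were called in both directions. HF-SCs were called higher for 3 of the 16 genes that passed the filter (21 listed, Fgf18 passing only through HF-SCs) and b-KCs for 6 (median -0.52), beside 11.1% and 11.9% of all tested genes. Fgf1 was at 42.4, 30.6 and 36.5 FPKM in HF-SCs and 1.44, 1.31 and 1.4 FPKM in b-KCs (3.96 ± 0.12), and Fgfr1 at 67.6, 59 and 62.4 FPKM against 7.67, 7.18 and 8.14 FPKM. The EGF receptor ligands Epgn, Areg, Hbegf and Ereg were higher in b-KCs, between -2.32 and -1.13, as were the receptors Erbb3 and Erbb2 (-1.32 and -1.09). Ereg fell to -0.65 without mouse 810 and Erbb2 to -0.98, and under upper-quartile rescaling they were at -0.98 and -0.89. With no filter Ereg was not called (limma adjusted p = 0.0538). Egfr itself was at 59.5 to 77.1 FPKM in HF-SCs and 37.7 to 46.3 FPKM in b-KCs and was not called (0.70 ± 0.10).

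Genes of adhesion to the basement membrane were called for selected integrins. Without the gate gene Itga6, 14 genes passed the filter (15 listed), and 4 were called higher in HF-SCs and none in b-KCs (median 0.65), beside 11.1% and 11.9% of all tested genes. Itgb8, which activates TGF-β, was at 9.69, 21.9 and 21.3 FPKM in HF-SCs and 1.63, 2.4 and 2.45 FPKM in b-KCs, and Itgb6, which does the same, at 18.3, 20.6 and 19.6 FPKM against 3.13, 5.04 and 4.14 FPKM. Itga2 and Col7a1, the collagen of anchoring fibrils, were the other calls (1.99 and 1.14). Col7a1 fell to 0.84 without mouse 825 and was not called in the fit of all 18 libraries (limma adjusted p = 0.0862). Cd151 was not called (-0.71), but without mouse 810 it was called higher in b-KCs (-1.27). The hemidesmosomal pair Itga6 and Itgb4 had values of -0.58 and -0.05 and was not called. Matrix genes were called higher in HF-SCs for 14 of 17 that passed the filter (23 listed, 4 of the 17 passing only through HF-SCs) and in b-KCs for 2 (median 2.34, background 11.1% and 11.9%). Col5a2 was at 11.2, 17 and 15.7 FPKM in HF-SCs and 0.625, 0.514 and 0.711 FPKM in b-KCs, and Sparc at 183, 147 and 190.2 FPKM against 21.4, 28.6 and 21.3 FPKM. Col16a1 and Thbs1 were the 2 in b-KCs (-1.34 and -1.46).

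Markers of vessels and dermis were higher in the same HF-SC libraries. The 16 endothelial genes summed to 69.8 to 114 FPKM in HF-SCs and to 2.37 to 3.91 FPKM in b-KCs, and each of them stayed under 1 FPKM in every b-KC library. All 12 that passed the filter did so only through HF-SCs, so their direction was set by the filter, and all were called higher there (background 11.1%). Plvap, a protein of fenestrated vessels, was at 29.6, 33.4 and 18.9 FPKM in HF-SCs, Pecam1 (CD31) at 10.6, 12.9 and 8.62 FPKM and Vwf at 5.91, 11.9 and 5.86 FPKM, while Cdh5 was at 1.37, 1.72 and 0.741 FPKM and Cldn5 under 0.2 FPKM. The 14 fibroblast genes summed to 233 to 280.2 FPKM in HF-SCs and 21.6 to 25.2 FPKM in b-KCs. Most of that sum was Col6a1 at 149, 149 and 148 FPKM, whereas Col1a1 was at 6.75, 6.76 and 3.9 FPKM, Dcn at 22, 45.8 and 17.1 FPKM, Pdgfra at 0.536, 0.588 and 0.413 FPKM and Twist2 at most 0.112 FPKM. Of the 9 fibroblast genes that passed, 5 of them only through HF-SCs, 8 were called higher in HF-SCs and Thy1 in b-KCs (-3.10), beside 11.1% and 11.9% of all tested genes. CD34 is also a protein of vascular and dermal cells, and the part of such cells in the matrix, Il6, Cxcl12 and other HF-SC results was not tested.

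Of the leukocyte markers, Ptprc, which encodes CD45, was at most 0.0414 FPKM. Of the class II genes, which mark antigen-presenting cells, Cd74 was at 2.75, 6.21 and 5.45 FPKM in HF-SCs and 3.32, 6.07 and 6.53 FPKM in b-KCs and was not called. The leukocyte list of 14 summed to 13.2 to 20.1 FPKM in HF-SCs and 8.44 to 13.4 FPKM in b-KCs. Of its 4 genes that passed, 1 was called, Cd68, higher in HF-SCs (1.06, background 11.1% and 11.9%), but not without mouse 828 (0.996). Mural genes held at most 49.6 FPKM in HF-SCs and 13.3 FPKM in b-KCs, most of it Cspg4 (39, 42.7 and 45.2 FPKM against 7.7, 8.04 and 9.55 FPKM), and Rgs5 is listed at 0 in all 6 libraries. The melanocyte list reached 23.9 FPKM in HF-SCs, chiefly Mitf (2.74), with Dct, Pmel and Tyr near 1 to 2 FPKM and not called. Of the Schwann cell list, Ngfr was higher in b-KCs, at 11.5, 10.8 and 11.7 FPKM against 0.875, 1.01 and 1.04 FPKM, and no gene of the Merkel cell list or of the cartilage and muscle list passed the filter.

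**Figure D5:**
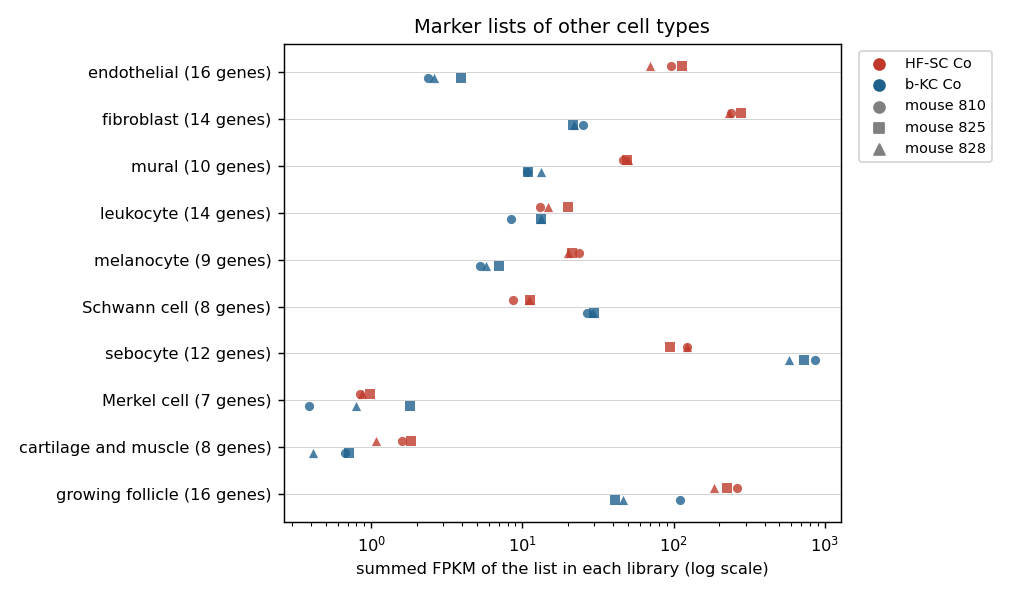
Summed FPKM (log scale) of marker lists of other cell types in each library; red is HF-SC Co, blue is b-KC Co and symbols are the mice. Endothelial and fibroblast sums lie higher in all 3 HF-SC libraries, the sebocyte sum lies higher in all 3 b-KC libraries, and the Merkel cell and cartilage and muscle sums stay under 2 FPKM.

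Sebocyte genes, which make the lipids of sebum, were higher in b-KCs. Of 12 listed, 11 passed the filter, 3 only through b-KCs, and 10 were called higher in b-KCs and none in HF-SCs (median -2.23, background 11.9% and 11.1%). The list summed to 94.9 to 123 FPKM in HF-SCs and 582 to 869 FPKM in b-KCs. Scd1, a fatty acid desaturase, was at 32.8, 35.4 and 37.2 FPKM in HF-SCs and 366, 366 and 277 FPKM in b-KCs, and Pparg, the factor of sebocyte maturation, at 1.34, 0.696 and 1.04 FPKM against 9.09, 8.95 and 7.38 FPKM. Mc5r, a receptor largely restricted to sebocytes, was under 0.25 FPKM in HF-SCs and at 5.34, 3.23 and 3.67 FPKM in b-KCs. The part of sebaceous cells in b-KC results such as Fa2h, Elovl3 and the lipid genes was not tested. Genes of the growing follicle went the other way, with 6 of the 9 that passed (16 listed, 3 passing only through HF-SCs) called higher in HF-SCs (background 11.1%). Krt6a, of the inner bulge and companion layer, was at 188, 146 and 119 FPKM in HF-SCs and 81.3, 14.9 and 19.5 FPKM in b-KCs, and Krt75 at 6.43, 8.11 and 6.83 FPKM against 0.171, 0.162 and 0.135 FPKM. Hair shaft keratins such as Krt31, Krt35 and Krt85 were under 0.2 FPKM in every library.

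Of 24 genes of skin inflammation, many of them followed by the study, 23 were in the table and 17 passed the filter, 3 of them only through b-KCs, and 8 were called higher in b-KCs and 1 in HF-SCs (median -0.95, background 11.9% and 11.1%). The study took up many of these genes on mice of this series, so the list is not independent evidence of a direction. Of the 8, Il1a, Ptgs2 and Stat5a fell under the fold threshold under upper-quartile rescaling (-0.95, -0.89 and -0.84), Stat5a also by the median ratio (-0.95), and Lcn2 was not called in the fit of all 18 libraries (limma adjusted p = 0.0712). Tslp, the epithelial cytokine that the study follows, was at 1.93, 1.65 and 1.81 FPKM in HF-SCs and 7.09, 6.26 and 7.64 FPKM in b-KCs (-1.51 ± 0.12, limma adjusted p = 3.83e-06), higher in b-KCs in 3 of 3 mice. Il33, a nuclear alarmin, was at 12, 14.8 and 13.4 FPKM in HF-SCs and 92.4, 96.9 and 109.6 FPKM in b-KCs, and Il1rn, the inhibitor of IL-1, at 9.1, 14.4 and 8.74 FPKM against 80.7, 101 and 85.3 FPKM. Il6 was the gene higher in HF-SCs, at 35.1, 14.4 and 13.8 FPKM against 3.05, 3.21 and 6.67 FPKM (1.99 ± 0.32). Its highest HF-SC value was that of mouse 810, and the part of vascular and dermal cells in the Il6 values was not tested.

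Of 18 chemokine genes, 11 passed the filter (Ccl7 only through HF-SCs) and 3 were called in each direction (median -0.44), beside 11.1% and 11.9% of all tested genes. Cxcl14, a chemokine of resting epithelium, was at 1224, 907 and 1013 FPKM in HF-SCs and 33.3, 51.6 and 76.8 FPKM in b-KCs (4.32 ± 0.24), and Cxcl12 at 38.5, 34.1 and 38.7 FPKM against 4.24, 3.04 and 3.98 FPKM. Ccl20, which attracts Langerhans cell precursors and Ccr6-bearing T cells, was at 9.38, 5.89 and 10.8 FPKM in HF-SCs and 96.3, 72.7 and 96.3 FPKM in b-KCs (-3.23 ± 0.11). Cxcl1 and Cxcl10 were higher in b-KCs and Ccl7 in HF-SCs (-1.26, -1.24 and 1.54). Skint genes, keratinocyte proteins of which Skint1 selects epidermal gamma-delta T cells, were called higher in b-KCs for 10 of 11, Skint8 passing only through b-KCs, with a median of -1.66 (background 11.9%). In the fit of all 18 libraries Skint3, Skint9 and Skint11 lost their calls (limma adjusted p of 0.213, 0.136 and 0.103). Skint1 was at 7.16, 5.61 and 6.12 FPKM in HF-SCs and 44.3, 48.5 and 54.8 FPKM in b-KCs. Skint4 was the exception, at 14.3, 21.7 and 20.6 FPKM in HF-SCs and 11.3, 12.3 and 11.6 FPKM in b-KCs (0.62 ± 0.12, not called). The Skint genes are close paralogs and the alignment kept multihits, so their levels are uncertain one by one. None of the 10 class I and peptide-loading genes that passed was called (median -0.56, background 11.1% and 11.9%), with H2-K1 nearest the threshold (-0.96). Without mouse 828, H2-K1 and Psmb9 were called higher in b-KCs (-1.11 and -1.04).

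AP-1 genes, the family of the JunB and c-Jun proteins that the study deletes, were looked at in both populations. Of 10 listed, 9 passed the filter, and 1 was called higher in b-KCs and none in HF-SCs (median 0.02), beside 11.9% and 11.1% of all tested genes. Jun was at 835, 1028 and 1086 FPKM in HF-SCs and 876, 979.7 and 1000.0 FPKM in b-KCs (0.04 ± 0.17, limma adjusted p = 0.842). Junb was at 463, 436 and 443 FPKM in HF-SCs and 737, 772 and 739.7 FPKM in b-KCs, lower in HF-SCs in each mouse by less than the fold threshold (-0.74 ± 0.15, adjusted p = 0.00153). Fosl1 (Fra-1) was the called gene, at 7.15, 11.2 and 7.0 FPKM in HF-SCs and 37.2, 53.2 and 47.6 FPKM in b-KCs (-2.33 ± 0.12). Of the immediate-early members, Fos ran from 2094 to 2841 FPKM in HF-SCs and from 2046 to 2308 FPKM in b-KCs, and Atf3 from 989 to 1294 FPKM and from 1324 to 1674 FPKM.

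The genes with the largest differences were the 12 per direction with the largest log2 fold change among called genes whose libraries do not overlap. On the HF-SC side these were Cd34, Angptl7, Il31ra, Grem1, 6330403K07Rik, Lgr5, Tgm5, Col8a2, Chat, Col6a1, Peg3os and Gm16897, from 8.24 to 5.07. Il31ra, Grem1, Chat, Peg3os and Gm16897 passed the filter only through HF-SCs, so that they had to differ. Il31ra (chr13:113313018-113370870, minus strand), a chain of the receptor for the itch cytokine IL-31, was at 115, 107 and 106 FPKM in HF-SCs and 0.587, 0.373 and 0.494 FPKM in b-KCs (6.22 ± 0.10). Tgm5, a transglutaminase, was at 804, 804 and 616 FPKM in HF-SCs and 19.6, 17.8 and 11.3 FPKM in b-KCs. Chat, which makes acetylcholine, was at 46.5, 43.9 and 50 FPKM in HF-SCs and 0.322, 0.267 and 0.314 FPKM in b-KCs, and Col8a2, a short-chain collagen, at 153, 195 and 187 FPKM against 3.6, 3.59 and 2.86 FPKM. Gm16897 (chr1:196781953-196803153, minus strand) overlaps Cd34 on the opposite strand and shares up to 148 exon bases with it. The libraries carry no strand information, so reads of the overlap cannot be assigned, and its 33.7 to 37.9 FPKM in HF-SCs is uncertain. Exons are also shared with another gene of the table for, among others, Tbp (1157 bases, Pdcd2), Fosl1 (1054, Ccdc85b), Ccnd1 (818, Oraov1), Cebpb (312, Tmem189) and Bmp6 (236, Txndc5), and their levels are uncertain for the same reason.

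On the b-KC side the 12 were Fa2h, Elovl3, Krt77, Mt4, Krt1, Krt79, Acoxl, Igfbp2, Ly6d, Crispld2, Krt2 and Mmp3, from -4.09 to -3.45. Fa2h, which hydroxylates fatty acids, was at 2.21, 0.945 and 2.19 FPKM in HF-SCs and 80.7, 34.8 and 32.8 FPKM in b-KCs (-4.09 ± 0.20, limma adjusted p = 2.59e-07). Krt2, a keratin of the upper spinous layer of thin skin such as the ear, was at 435, 814 and 597 FPKM in HF-SCs and 7268, 6623 and 6316 FPKM in b-KCs. Mt4, the metallothionein of stratified epithelia, was at 40.5, 23.1 and 39.7 FPKM in HF-SCs and 582, 403 and 468 FPKM in b-KCs. Mmp3, stromelysin, was at 9.13, 16.7 and 8.53 FPKM in HF-SCs and 86.5, 197 and 127 FPKM in b-KCs, with mouse 825 highest in both. Krt1, Krt2, Krt77 and Krt79 lie in the type II keratin cluster of chromosome 15 together with Krt5, between positions 101537501 and 101770755 in NCBIM37. Krt5, at one end of this stretch, was not called.

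Promoters of 5 of these genes are shown because their genes are among those with the largest differences and they show a promoter without any of 3 motifs and promoters with 1 of them. The sequences are from RefSeq (GRCm38.p6, 250 bases before to 50 after the start, 5′ to 3′ on the strand of the gene), and their positions cannot be set against the NCBIM37 ones above. Capitals mark matches on either strand to TGANTCA (AP-1), CTTTGAT (TCF/LEF) or AACCNGTT (GRHL), and these motifs did not overlap in the 5 sequences. Cd34 (chr1:194938571-194938870, plus strand) held none of them, Tgm5 (chr2:121085792-121086091, minus strand) a GRHL match, Col6a1 (chr10:76725995-76726294, minus strand) and Mmp3 (chr9:7445572-7445871, plus strand) an AP-1 match, and Krt2 (chr15:101818120-101818419, minus strand) a TCF/LEF match.
Cd34: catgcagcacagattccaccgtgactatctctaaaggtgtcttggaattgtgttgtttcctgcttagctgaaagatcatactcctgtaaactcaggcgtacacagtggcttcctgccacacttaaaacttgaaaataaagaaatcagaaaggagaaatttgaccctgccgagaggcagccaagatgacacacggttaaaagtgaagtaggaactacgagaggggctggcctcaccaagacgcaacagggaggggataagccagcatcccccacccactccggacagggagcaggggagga
Tgm5: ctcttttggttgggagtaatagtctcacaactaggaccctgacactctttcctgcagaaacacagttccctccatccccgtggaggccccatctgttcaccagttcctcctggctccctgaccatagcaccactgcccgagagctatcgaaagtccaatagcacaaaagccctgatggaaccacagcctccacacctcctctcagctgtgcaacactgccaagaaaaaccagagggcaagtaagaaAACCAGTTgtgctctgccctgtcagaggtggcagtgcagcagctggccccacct
Col6a1: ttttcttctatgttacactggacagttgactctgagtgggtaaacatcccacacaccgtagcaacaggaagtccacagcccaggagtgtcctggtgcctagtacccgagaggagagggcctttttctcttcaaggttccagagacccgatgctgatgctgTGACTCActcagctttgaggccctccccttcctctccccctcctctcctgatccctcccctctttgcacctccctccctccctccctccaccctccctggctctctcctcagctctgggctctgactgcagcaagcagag
Mmp3: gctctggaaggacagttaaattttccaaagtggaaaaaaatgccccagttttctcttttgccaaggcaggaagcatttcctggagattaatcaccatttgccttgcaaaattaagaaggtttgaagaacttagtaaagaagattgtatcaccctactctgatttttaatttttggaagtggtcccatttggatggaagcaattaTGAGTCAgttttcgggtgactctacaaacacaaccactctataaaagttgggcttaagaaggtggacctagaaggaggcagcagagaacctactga
Krt2: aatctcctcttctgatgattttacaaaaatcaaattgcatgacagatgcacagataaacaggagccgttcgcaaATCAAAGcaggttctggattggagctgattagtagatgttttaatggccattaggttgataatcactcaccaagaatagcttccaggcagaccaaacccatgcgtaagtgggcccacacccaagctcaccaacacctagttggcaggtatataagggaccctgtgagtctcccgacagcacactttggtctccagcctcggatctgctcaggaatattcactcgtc
The AP-1 match was found in 8.97% of the 27025 genes with a promoter of this length, in 6.16% of 8946 tested genes, in 6.63% of 935 called higher in HF-SCs and in 9.73% of 1017 called higher in b-KCs. The TCF/LEF match was found in 4.29%, 3.05%, 3.96% and 3.05% of the same sets, and the GRHL match in 2.35%, 2.22%, 2.67% and 2.16%. Matches to TTTCCA (NFAT) were in 19.5% of tested genes, 25.3% of those called higher in HF-SCs and 19.6% of those called higher in b-KCs, and matches to GACCACCC (GLI) in 1.08%, 1.39% and 1.08%. These are descriptions of letters within 300 bases, without a test.

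Genes that every cell uses gave a measure of the scale between the populations. Of 11 housekeeping genes the median log2 fold change was -0.60, with Tbp at 18.7, 17.3 and 18.7 FPKM in HF-SCs and 18.4, 17.5 and 17.4 FPKM in b-KCs and Gapdh at 158, 96.7 and 115 FPKM against 206, 162 and 161 FPKM. Rplp0 was called higher in b-KCs (-1.56) and none of the 11 higher in HF-SCs. Of 77 cytosolic ribosomal protein genes that passed the filter, 10 were called higher in b-KCs and none in HF-SCs, beside 11.9% and 11.1% of all tested genes, with a median of -0.84. In 72 of them every b-KC library lay above every HF-SC library, as in 38.7% of all tested genes. The medians of both lists stayed negative under each rescaling.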

How the data were processed

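RNA of 6 sorted control populations of mouse ear skin was measured by RNA-seq, 3 of HF-SCs and 3 of b-KCs, 1 of each per mouse. The libraries were made without strand information. The authors aligned the reads with TopHat2 and Bowtie, kept multihits, and deposited gene values as FPKM from Cufflinks (submitters' notes: FastQC 0.11.0, TopHat2 2.0.10, Bowtie 1.0.0, SAMtools 0.1.1.9, Cufflinks 2.2.1). The paper gives the build mm9 (NCBIM37), and the labels also name GRCm38 and mm10 without a role. FPKM values are not counts, so they were tested as log2(FPKM + 1) with limma 3.58.1 (R 4.3.3, with trend, mouse as a fixed block, Benjamini-Hochberg), after a filter of 1 FPKM in at least 3 of 6 libraries. No count test was made. Read depth was estimated from the steps of low FPKM values in single-transcript genes, and 78.5% to 80.3% of low values were within 0.1 of whole reads, too few for whole reads to be recovered.

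The mouse numbers in the labels mark the same animal in both cell types. Deviations from the group mean correlated at 0.296, 0.315 and 0.193 within mice and below 0 between mice. Deviations within a group sum to 0, which pushes the values between mice below 0, so those add no separate evidence of pairing. On simulated data with the spread of this comparison (11905 genes), 92 of 100 genes shifted by 1.5 (log2) and 99 of 100 shifted by 3 were called in the right direction, and 2 of 11705 unchanged genes were called. The shifted genes were drawn from those with a mean log2(FPKM + 1) above 2, so low genes are not covered. In the data 8221 genes had a limma adjusted p below 0.05, far more than were shifted. Libraries were assigned by their labels, and this comparison and the gene lists were chosen with earlier results of these data known. Named genes were Cd34, Lhx2, Sox9 and Krt5, called or defining genes of the lists, and the 12 per direction with the largest fold change among calls without overlap. Some genes are not reported here. Lists are described by counts and medians, with no test. Promoters are from RefSeq (GRCm38.p6, Python 3.11.15). The 12 libraries of mutant mice entered only the alternative fit of all 18 libraries and the alternative filter. p-values measure the spread between 3 mice after limma drew the variance of each gene toward that of genes at a similar level.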

Additional observations from a re-analysis of the deposited data

How the results depend on the processing

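A fit with no replicate block gave 1318 genes higher in HF-SCs and 1408 higher in b-KCs against 1321 and 1411 with the mouse as a block, and it changed the call of none of the 371 named genes that were tested, 239 of them called. Stricter thresholds (adjusted p below 0.01, log2 fold change of 2 or more in either direction) left 366 and 367 genes, and dropping the fold change threshold gave 3711 and 4510. Rescaling to the same upper quartile gave 1652 and 1082, 60.4% of calls on the HF-SC side against 48.4%, and rescaling by the median ratio 1421 and 1276. The other alternatives (pseudocount 0.1, no filter, a filter on the mean or over all 18 libraries, no trend, a fit of all 18 libraries and exact 0 values of abundant genes as missing) gave 1266 to 1721 and 1381 to 1694. Leaving out 1 mouse gave 1291 to 1383 and 1406 to 1469, and among the named genes 14 lost their call, 19 gained one and 1 reversed. With so few libraries left, the adjusted p of these fits rests largely on variance that limma borrows from other genes. The reversed gene was Krt15, from -2.59 to 1.906 without mouse 828 (-4.846 to 1.906 over the 3 mice), which is also its value with the 0 of that library as missing, under the planned rule and under a wider one chosen after seeing the data. The calls lost were those of Ereg, Erbb2, Ccne1 and Krt71 without mouse 810, of Cebpb, Col7a1, Eln, Ccnd1, Ccne1 and Ptgs2 without mouse 825, and of Wnt16, Notch1, Cdkn1b, Il1a and Cd68 without mouse 828. The fit of all 18 libraries ended the calls of Krt14, Col7a1, Lcn2, Skint3, Skint9, Skint11 and Awat1. The depth limits low genes, since 3 reads correspond to 0.123 to 0.161 FPKM for the transcript length given, and the FPKM scale cannot show a change in total RNA per cell.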

Other observations

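The gene families below were picked after their values were seen, and their counts are descriptions beside the 11.1% and 11.9% of tested genes called in each direction. Fatty acid elongases were called in both directions, with Elovl3, Elovl4, Elovl6 and Elovl1 higher in b-KCs (-3.91, -2.81, -2.36 and -1.47), Elovl5, which elongates polyunsaturated fatty acids, higher in HF-SCs (1.46 ± 0.10) and Elovl7 not called (-0.01).

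Of 17 imprinted genes, 10 passed the filter, 3 only through HF-SCs, and 7 were called higher in HF-SCs and 1 in b-KCs. Peg3 was at 12.4, 26.1 and 16.1 FPKM in HF-SCs and under 0.2 FPKM in each b-KC library (4.01 ± 0.17). Sgce was at 13.3, 12.5 and 15.4 FPKM in HF-SCs and 0.203, 0.208 and 0.115 FPKM in b-KCs. Snrpn was at 11.4, 8.66 and 8.56 FPKM against 0.92, 1.37 and 1.6 FPKM, Cdkn1c, Peg13, Impact and Ndn lay between 1.10 and 1.68, and Plagl1 was the one in b-KCs (-1.04), while Igf2 and H19 were near 0 in all libraries. Of 22 Hox genes, 6 passed the filter (Hoxa3 and Hoxa5 only through HF-SCs) and 4 were called higher in HF-SCs, led by Hoxc13, a factor of the hair shaft (12.7, 10.9 and 9.72 FPKM against 3.17, 1.03 and 1.75 FPKM), and Hoxa2 (9.23, 8.84 and 8.67 FPKM against 1.82, 1.84 and 1.63 FPKM). Hoxa9, Hoxa10, Hoxc9 and Hoxc10 were at or near 0 in the ear skin of these mice. Il31ra, among the largest differences, pairs with Osmr in the IL-31 receptor, and Osmr was at 18.4, 22 and 18.9 FPKM in HF-SCs and 9.49, 11.5 and 10.9 FPKM in b-KCs (0.84 ± 0.10, not called).

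Some genes differed between mice in both cell types. In 16 tested genes, Xist and Y-linked genes left out, the mice kept the same order and a range of at least 1 on the log2 scale in both cell types. S100a8, a neutrophil-attracting alarmin, was at 30.2, 2.87 and 49.2 FPKM in HF-SCs and 61.9, 3.27 and 62 FPKM in b-KCs, lowest in mouse 825 in both. Tmem87a was highest in mouse 828 in both, at 4.2, 3.71 and 23.8 FPKM and 1.81, 1.78 and 19.9 FPKM, a gene that shares 212 exon bases with Ganc.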
